A study of Mus musculus with 2 samples.

Results

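The genes described here are the enzymes and regulators of DNA replication and S phase, 44 in all. They were listed by name for their roles in copying the genome and not by their values, although earlier results of these data were known. Probes that carried 43 of the names were found among the 27579 gene names with a usable probe, and Gins2 was not found under that name. The members comprised 11 factors of origin licensing, 4 of helicase activation (3 measured), the sliding clamp with 4 subunits of its loader, 6 subunits of the polymerases and primase, 4 proteins of single-strand binding and Okazaki fragments, 5 enzymes of nucleotide supply, 4 regulators of the G1/S transition, 2 of chromatin assembly and 3 of the checkpoint and repair.

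Replication is prepared in G1, when the origin recognition complex, Cdc6 and Cdt1 load the Mcm2 to Mcm7 helicase onto DNA. At the start of S phase Cdc45 and the GINS complex switch the helicase on, primase and the polymerases copy both strands behind it, and the clamp Pcna holds the polymerases on the template. Many of these genes are transcribed by E2F factors when a cell leaves G1, so that dividing fibroblasts carry more of their mRNA than resting ones.

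RNA was measured from primary embryonic fibroblasts (MEFs) of C57BL/6J mice, either deficient for the kinase Lats2 (LATS2-/-, here KO) or wild type (LATS2+/+, here WT), with no treatment and no embryonic age or passage stated in the sources used here. Both RNAs were hybridised together on each of 2 whole mouse genome oligonucleotide arrays, with the KO in Cy5 (red) and the WT in Cy3 (green) on the first, and the dyes exchanged on the second. The labels name no separate culture or embryo for either array, so the arrays were counted as 1 replicate, the genotypes cannot be told apart from differences between the cultures, and no test of the genotype was possible. KO and WT stand throughout for RNA that carries this label, because 3 of 4 Lats2 probes read higher in the RNA labelled KO, at log2 ratios of 0.56 to 0.63, and the last at -0.35. Where those probes lie relative to the deleted part of the gene was not analysed here, and a probe outside it checks nothing about the label.

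Values are log2 ratios of KO over WT for each array, taken from intensities after background correction and loess normalisation, with the second array turned so that both run the same way. A probe's log2 ratio differed between the arrays with an SD of 0.133 for 1 array, which gives the mean of both an SD of 0.094. This error covers hybridisation and dye only. Every one of the 43 members was read by a probe that passed the scanner software's background flag for KO and for WT on each array, as did 59 of their 63 probes. Of the fibroblast markers, 8 of 8 were well above background, against 0 of 4 endothelial and 0 of 3 skeletal muscle markers. The fibroblast markers differed between the genotypes too, from -0.89 for Vim to 0.89 for Fn1 in mean log2 ratio. A lone epithelial marker of 5, Krt19, was detected and stood at 2.12, while Cdh1, Krt8, Krt18 and Tacstd1 stayed under the flag. Cd68 and Csf1r were detected of 4 blood markers, with Ptprc and Emr1 under the flag, and Nes, Tubb3 and Sox10 of 4 neural markers, with Sox2 under it, at ratios between -0.30 and 0.14. The part of these markers in the members' ratios was not tested. In whole-culture RNA, fewer cells in S phase and less mRNA per cell cannot be told apart.

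As a group, the replication genes were modestly lower in the KO. Their median log2 ratio was -0.29, or 81.6% of WT, with -0.31 on the array with KO in Cy5 and -0.25 on the array with KO in Cy3, beside a median of -0.0037 over the 15877 genes well above background in at least 1 genotype. The mean lay below 0 in 35 of 43 members (81.4%), against 50.5% of all tested genes. The sign was negative on both arrays in 30 members (69.8%, against 41.4% of all tested genes) and positive on both in 5 (11.6%, against 40.2%). It differed between the arrays in 8 members, a share of 18.6% that is near the 18.3% of all tested genes. The quartiles of the members were -0.50 and -0.05, and most differences were small next to the 2-fold threshold of the study's methods.

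At the 2-fold threshold, required in the same direction on each array, 1 member was lower (E2f2) and 1 was higher (Rrm2), while 2.61% of all tested genes passed it as lower and 2.95% as higher. At 1.5-fold, 3 members were lower (E2f2, Mcm4 and Gins1), or 6.98%, which is near the 7.17% of all tested genes and therefore no result about the members. The share of all genes at least 1.5-fold higher was 7.04%, against Rrm2 alone among the members. A smaller bound, the between-array SD of 0.133 passed in the same direction on each array, was chosen after the values were seen. By it 28 members (65.1%) were lower, against 27.9% of all tested genes, and 2 (Rrm2 and Chaf1b) were higher, against 26.5%. The remaining 13 members passed in neither direction. These counts need both arrays and rest on the loess step. With each array centred on its median instead, 0 members passed 2-fold, 1 was lower and 1 higher beyond the SD, against 7.58% and 7.68% of all tested genes, and the members' median stayed at -0.25.

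**Figure D1:**
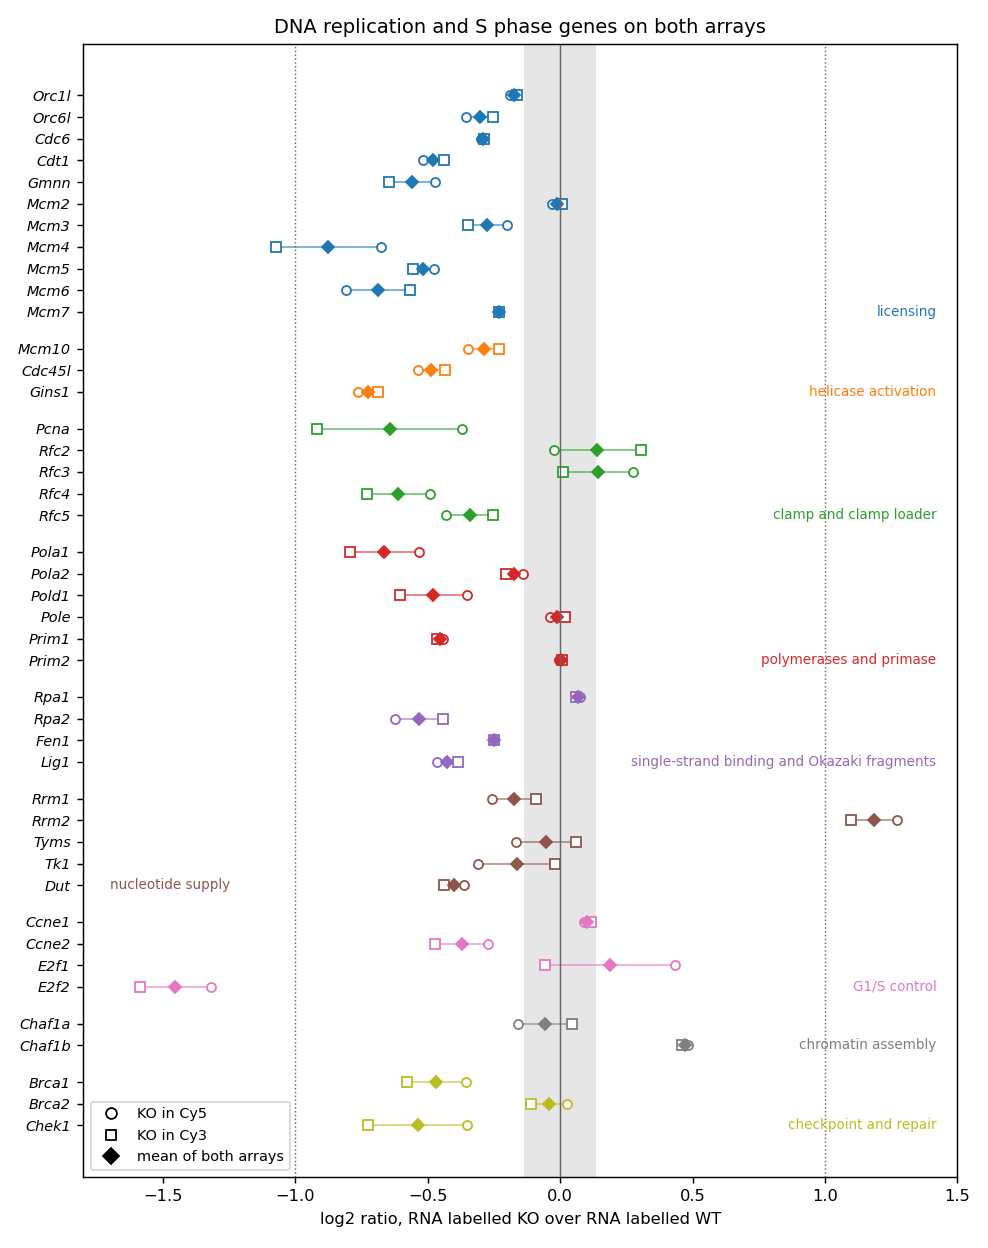
Log2 ratio of KO over WT (horizontal axis) for each of 43 members, grouped by role, on the array with KO in Cy5 (circles) and the array with KO in Cy3 (squares), with the mean of both as a diamond. The grey band spans 1 between-array SD (0.133) on each side of 0 and the dotted lines mark 2-fold. The licensing genes lie left of 0 with Mcm2 at 0, and E2f2 and Rrm2 stand outside the dotted lines on either side.

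The promoters of the members were read for the letters that E2F factors are known to bind. The sequences are RefSeq's on mouse build GRCm38.p6, from 250 bases before to 50 after each start, and the words searched on both strands, overlaps allowed, were TTTCCCGC, TTTCGCGC, TTTGGCGC and TTTGCCGC. Of 36 members with a promoter in the table, 13 held at least 1 word (36.1%), against 704 of 27025 genes (2.6%). Counted by promoter, 13 of 41 member promoters held a word (31.7%), against 744 of 32851 (2.26%). Many S phase genes are transcribed by E2F factors, so the choice of genes favours a high share. The 13 genes with a word had a median log2 ratio of -0.43, and the 23 others one of -0.25. What part the words have in the ratios was not tested. No promoter entry was found for Gins1, Gins2, Pole, Gmnn, Rfc2, Prim2, Mcm4 and Ccne2. The windows printed are those of the helicase genes Mcm3, Mcm5 and Mcm6, which hold more than 1 word close together, of Rfc3, which does so too and was above WT on both arrays with a mean of 0.14, of Orc1l and Pola1, which stand for the first and the later steps at an origin, and of E2f2, the member furthest below WT. Capitals mark the words, and each window reads 5' to 3' along its gene.
Mcm3: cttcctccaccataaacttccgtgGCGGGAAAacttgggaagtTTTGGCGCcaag
Mcm5: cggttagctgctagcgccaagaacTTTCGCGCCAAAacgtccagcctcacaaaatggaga
Mcm6: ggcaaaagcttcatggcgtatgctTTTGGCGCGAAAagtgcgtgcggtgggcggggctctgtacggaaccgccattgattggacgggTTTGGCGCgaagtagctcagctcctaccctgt
Orc1l: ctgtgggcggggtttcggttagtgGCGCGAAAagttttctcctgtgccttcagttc
Pola1: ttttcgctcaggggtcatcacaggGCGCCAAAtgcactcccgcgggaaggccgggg
Rfc3: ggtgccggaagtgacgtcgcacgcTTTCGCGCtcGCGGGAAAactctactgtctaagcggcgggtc
E2f2: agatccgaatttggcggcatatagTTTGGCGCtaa

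These windows lie at chr1:20820263-20820317 (minus strand), chr8:75109332-75109391 (plus), chr1:128359721-128359839 (minus), chr4:108579403-108579458 (plus), chrX:93632262-93632317 (minus), chr5:151651177-151651242 (minus) and chr4:136172289-136172323 (plus). In Mcm6 the first pair of words overlap in 1 run of capitals, starting at bases -110 and -106 from the start site, and the last begins at base -47. In Mcm5 the overlapping pair begin at bases -153 and -149. In Rfc3 the words begin at bases -10 and 1. The word in E2f2 begins at base 40, after the start. A second E2f2 promoter, at chr4:136180532-136180831 (plus), held no word. Other members with a word were Brca2, Cdc6, Cdt1, Lig1, Mcm7 and Pold1. A gene counted when any of its promoters held a word, and Lig1 and Mcm7 also had promoters with none. A match to these letters is a description of the sequence and does not show that a factor was bound in these cells. Pcna, at a mean ratio of -0.64, held no word, and the promoter of Rrm2, the member furthest above WT, at chr12:24708004-24708303 (plus strand), had none in this window.
Rrm2: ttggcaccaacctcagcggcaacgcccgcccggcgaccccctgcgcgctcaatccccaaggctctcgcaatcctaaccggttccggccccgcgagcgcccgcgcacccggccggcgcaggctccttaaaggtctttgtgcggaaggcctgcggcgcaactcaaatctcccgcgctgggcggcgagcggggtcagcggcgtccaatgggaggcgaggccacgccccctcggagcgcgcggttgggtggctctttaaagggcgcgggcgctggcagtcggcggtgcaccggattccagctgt

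By their brightest probes, licensing genes were lower in the KO with the exception of Mcm2, while a second probe of Cdc6 read higher. Their median log2 ratio was -0.30, and all 11 means lay below 0. By these probes 10 of 11 were lower beyond the between-array SD on each array, Cdc6 among them. Over all tested genes that share was 27.9%, to be set beside the counts of the other roles too. Orc1l, the largest subunit of the origin recognition complex, read -0.19 on the first array (KO in Cy5) and -0.16 on the second (KO in Cy3), the order kept for all pairs of values that follow. Orc6l, the smallest subunit, read -0.36 and -0.25. Both therefore lay under WT by little, at 88.6% and 81.0% of its level. Cdt1, which brings the helicase to the origin, read -0.52 and -0.44. Its inhibitor geminin (Gmnn), which accumulates in S phase and blocks a second round of licensing, read -0.47 and -0.64. Loader and inhibitor were thus lower side by side, at 71.8% and 67.9% of WT.

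Cdc6, the ATPase that works with the origin recognition complex to load the helicase, was read differently by its probes. The brightest, on chromosome 11 at 98737349 to 98737408 of build NCBI36 (mm8), gave -0.30 and -0.29, and a second at 98739945 to 98740004 gave 0.50 and 0.25. Both were well above background on both arrays, so the direction of Cdc6 depends on the probe. Of 15 members with several probes above background, 13 had probes within 0.25 of each other, and Cdc6 showed the widest gap, 0.66. Cdc6, Pole and Tyms were the 3 whose probes differed in sign.

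The 6 subunits of the Mcm2 to Mcm7 helicase, which act as 1 ring, did not share 1 ratio. Mcm4 was lowest, with normalised intensities of 12760 in KO and 20410 in WT on the array with KO in Cy5, and of 10320 and 21720 on the other. Its log2 ratios of -0.68 and -1.07 differed by more than 2 SD of a difference between arrays (0.377), and their mean of -0.88 is 54.5% of WT. A second Mcm4 probe was not well above background in KO or WT. Mcm6 followed, with 16530 in KO against 28960 in WT and then 17880 against 26460, or log2 ratios of -0.81 and -0.57. KO lay under WT on both arrays for both subunits, as in 30 of 43 members (69.8%) and in 41.4% of all tested genes. Mcm5 read -0.47 and -0.56. Mcm3 read -0.20 and -0.35, and Mcm7 -0.23 on each array. Mcm2 stood apart at the level of WT, with 3331 in KO against 3401 in WT and 3525 against 3506, or -0.03 and 0.01. The median of the ring was -0.40.

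The 3 measured genes of helicase activation were all lower beyond the between-array SD, with a median of -0.49. Gins1, a subunit of the GINS complex, read 1096 in KO against 1857 in WT and 1210 against 1950, giving log2 ratios of -0.76 and -0.69 and a mean of 60.5% of WT. Its second probe, at -0.68, lay within the between-array SD of the first. Cdc45l, the protein that completes the active helicase, read -0.54 and -0.44 from dim spots, with 267.7 in KO against 388.1 in WT on the first array. Mcm10, which assists the assembly of the active fork, read -0.35 and -0.23. The accession of Gins2 was found on a probe under an older clone name (4833427B12Rik), and that probe read 0.10 and 0.22, or 111.7% of WT, unlike Gins1.

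The clamp and its loader were split. Pcna, the ring that tethers polymerases to DNA, read 16710 in KO against 21610 in WT on the first array and 13340 against 25200 on the second. The log2 ratios of -0.37 and -0.92 had the same direction but lay further apart than 2 SD of a difference, although the 10 spots of its probe had an SD of only 0.036 and 0.022 within the arrays. Rfc4 and Rfc5, subunits of the pentameric loader that opens the clamp, read -0.49 and -0.73, and -0.43 and -0.25. Rfc2 and Rfc3, from the same complex, read -0.02 and 0.31, and 0.27 and 0.01. Loader subunits were therefore lower for Rfc4 and Rfc5 and not beyond the SD on both arrays for Rfc2 and Rfc3.

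Among the polymerases and primase the median was -0.31, and 4 of 6 genes were lower beyond the between-array SD. Pola1, the catalytic subunit of the polymerase that starts each strand, read 1576 in KO against 2281 in WT and 1611 against 2793, or -0.53 and -0.79. Pold1, catalytic in the lagging-strand polymerase, read -0.35 and -0.60. Prim1, the catalytic primase, read -0.44 and -0.47. The catalytic subunits named so far were at 63.1% to 73.0% of WT. Pole, catalytic in the leading-strand polymerase, read -0.04 and 0.02 by its brightest probe. A second Pole probe, also well above background, read 0.17 and 0.20. Pola2 was nearer to WT, at -0.14 and -0.20 from a dim probe, and Prim2, the large primase subunit, lay at 0, with 400.1 in KO against 401.5 in WT and 430.6 against 428.1.

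Proteins of single-strand DNA and Okazaki fragments had a median of -0.34, and 3 of 4 were lower beyond the between-array SD. Rpa2, the middle subunit of the single-strand binding protein RPA, read -0.62 and -0.44. The largest RPA subunit, Rpa1, read 0.08 and 0.06. Subunits of RPA thus differed from each other, as those of the helicase and the loader did. Lig1, the ligase that joins Okazaki fragments, read -0.47 and -0.39. Fen1, the nuclease that trims them, read -0.25 on each array.

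Nucleotide supply held the member furthest above WT. Rrm2 encodes the small subunit of ribonucleotide reductase, which makes deoxynucleotides and whose level normally rises in S phase. Its normalised intensity was 9789 in KO against 4054 in WT with KO in Cy5, and 9669 against 4516 with KO in Cy3. KO was above WT by 1.27 and 1.1 in log2 ratio, a mean of 227.4% of WT, and 2.46% of tested genes had a higher ratio. Its 1 probe lies on chromosome 12 at 25302833 to 25302889 (mm8). The large subunit of the same enzyme, Rrm1, read -0.26 and -0.09, below WT on both arrays, although within the SD on the second. Dut, which removes dUTP, read -0.36 and -0.44. Tyms and Tk1, which make thymidylate by synthesis and by salvage, read -0.17 and 0.06, and -0.31 and -0.02, neither beyond the SD on both arrays.

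G1/S regulators held the member furthest below WT. E2f2, an activator of S phase transcription, had intensities of 186.7 in KO against 465.4 in WT and of 194.8 against 585.3. The log2 ratios were -1.32 and -1.59, a mean of 36.5% of WT, and 1.18% of tested genes had a lower ratio. Its probe, on chromosome 4 at 135466723 to 135466782 (mm8), was dim in KO, and the background offset used here pulls such ratios towards 0. E2f1, the activator of the same class, read 0.43 and -0.06, and its second probe -0.12 and 0.35, which leaves its direction unsettled. Ccne1, a cyclin that activates Cdk2 at the G1/S transition, read 0.09 and 0.11. The related Ccne2 read -0.27 and -0.47 from a dim probe, with 164.0 in KO against 198.1 in WT.

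Chromatin assembly factor 1 places histones on new DNA, and its subunits had no shared direction. Chaf1b read 2914 in KO against 2082 in WT and 3050 against 2217, or 0.48 and 0.46, which made it with Rrm2 the second of 2 members higher beyond the SD on each array. Chaf1a read -0.16 and 0.05. Of the checkpoint and repair genes, Chek1, the kinase that restrains origin firing when forks stall, read -0.35 and -0.72. Brca1, a scaffold of homologous recombination, read -0.36 and -0.58 by its brightest probe, while a second probe had a mean of -0.11. Brca2, which acts in the same repair pathway, read 0.03 and -0.11, at the level of WT.

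**Figure D2:**
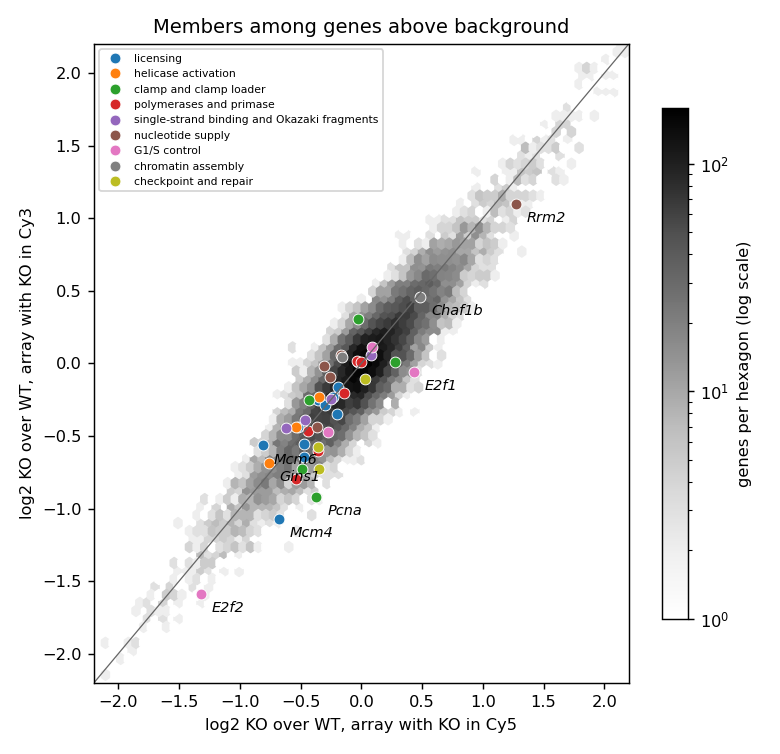
Log2 ratio of KO over WT on the array with KO in Cy5 (horizontal axis) against the array with KO in Cy3 (vertical axis). Grey hexagons count genes well above background in at least 1 genotype on a log scale, coloured points are the members by role, and the line marks equal ratios; genes outside the axes are not drawn. Rrm2 and E2f2 lie at the ends, and Pcna, Mcm4 and E2f1 lie furthest below the line among the members.

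The arrays gave Pearson's r of 0.945 across tested genes and 0.883 across members, or 0.787 without Rrm2 and E2f2. These values run across genes of the same 2 hybridisations, which are not independent replicates. In 3 of 43 members, Pcna, E2f1 and Mcm4, the arrays differed by more than 2 SD of a difference. They did so in 886 of 15877 tested genes, a similar share, so these gaps are no result about the members. For Pcna and Mcm4 the ratio was lower on the second array. For E2f1 it was lower on the second array by the brightest probe, while a second E2f1 probe, also well above background, ran the other way, at -0.12 and 0.35. The part of the dye in these differences was not tested.

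Medians also differed between chromosomes, from -0.16 on chromosome 4 to 0.18 on chromosome 12 over all tested genes. E2f2 lies on chromosome 4 and Rrm2 on chromosome 12, and after the median of the chromosome was subtracted from each array their mean ratios were -1.29 and 1.0. Rrm2 then no longer passed 2-fold on both arrays. Chromosome 5, with a median of 0.13, carries 7 members, Mcm7, Rfc2, Rfc3, Rfc5, Pole, Tyms and Brca2, and their median was -0.04. The 4 members on chromosome 16, where the median was -0.11, are Mcm4, Cdc45l, Rfc4 and Chaf1b, with a median of -0.55. What part the chromosomes have in the members' ratios was not tested.

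Replication genes outside the listed members had a like median, with a larger share lower at 1.5-fold. Of 69 further genes, listed with earlier results known, 68 were measured, with a median log2 ratio of -0.29. Beyond the between-array SD 37 (54.4%) were lower and 7 (10.3%) higher, against 27.9% and 26.5% of all tested genes. At 1.5-fold on both arrays 12 were lower (17.6%), against 7.17% of all tested genes and 6.98% of the members. At that bound 1 was higher, against 7.04% of all tested genes. The lowest were Gins3, another GINS subunit, at 46.1% of WT (-1.13 and -1.10), E2f8, an E2F that represses S phase genes, at 50.6%, the histone chaperone Nasp at 54.4%, cyclin A2 (Ccna2), the S phase partner of Cdk2, at 55.3%, and Pole3, a small subunit of the leading-strand polymerase, at 58.5%. E2f6, a repressive E2F, was the 1 gene higher, at 0.97 and 0.86 by its brightest probe. With the mean over all its probes E2f6 no longer passed 1.5-fold on both arrays. Gins3 alone of the list passed 2-fold on both arrays.

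Mitosis genes lay lower than the replication genes. Their median log2 ratio was -0.76, against -0.29 for the members. Beyond the between-array SD 29 of 30 (96.7%) were lower and 1 was higher, against 27.9% and 26.5% of all tested genes. On both arrays 17 (56.7%) were at least 1.5-fold lower, against 7.17% of all tested genes. The lowest were Mki67, the antigen of the Ki-67 proliferation stain, at 29.1% of WT (-1.78 on each array), and Prc1, which bundles the spindle midzone, at 35.9%. Next came Cdc20, an activator of the anaphase-promoting complex, at 46.4%, the kinase Plk1 at 47.2% and the spindle motor Kif11 at 47.5%. No test of the difference between the lists was possible with 1 replicate. Genes of G1 and arrest had a median of -0.07, with 8 of 20 lower and 9 higher beyond the SD.

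**Figure D3:**
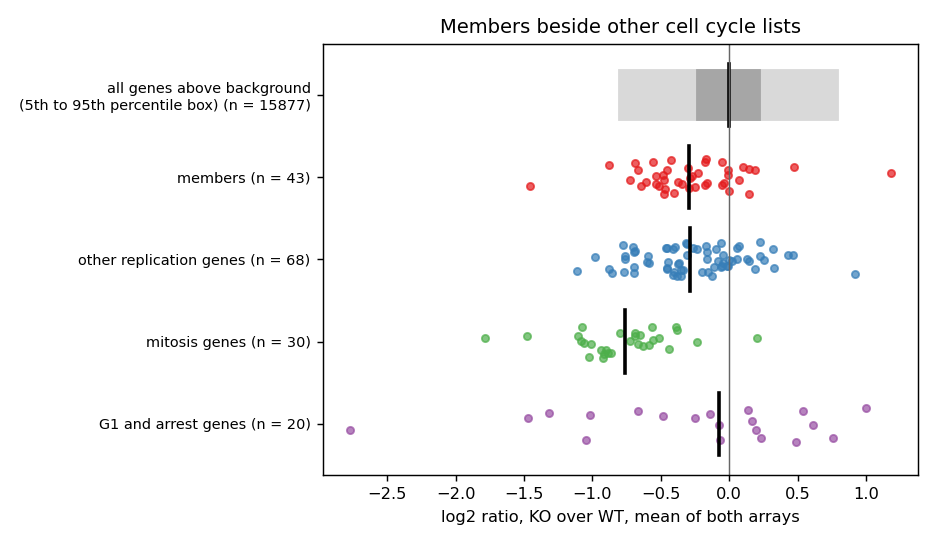
Mean log2 ratio of KO over WT (horizontal axis) of each gene, as a point, in the members and 3 further lists, with vertical bars at the medians. The top row shows all 15877 genes well above background in at least 1 genotype, as a dark box from the lower to the upper quartile inside a light box from the 5th to the 95th percentile. The points of the mitosis genes lie furthest to the left, with a median of -0.76, and those of G1 and arrest genes spread widest, with Gas6 lowest at -2.77.

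The signs of most members held under other processing. Of 602 values recomputed for the members, 20 had another sign than the value reported. They belonged to the 9 members that did not keep theirs, all with a mean between -0.29 and 0.19. The 602 values are not separate checks. Other background filters and quantile scaling of intensities between arrays could not change a member's ratio, and probes matched by accession moved none. The deposited ratios gave the same group medians as the scanner software's own. How many of all tested genes kept their sign is not given here. E2f2 ranged from -1.85 to -1.29 and Rrm2 from 1.0 to 1.27 over the alternatives run.

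**Figure D4:**
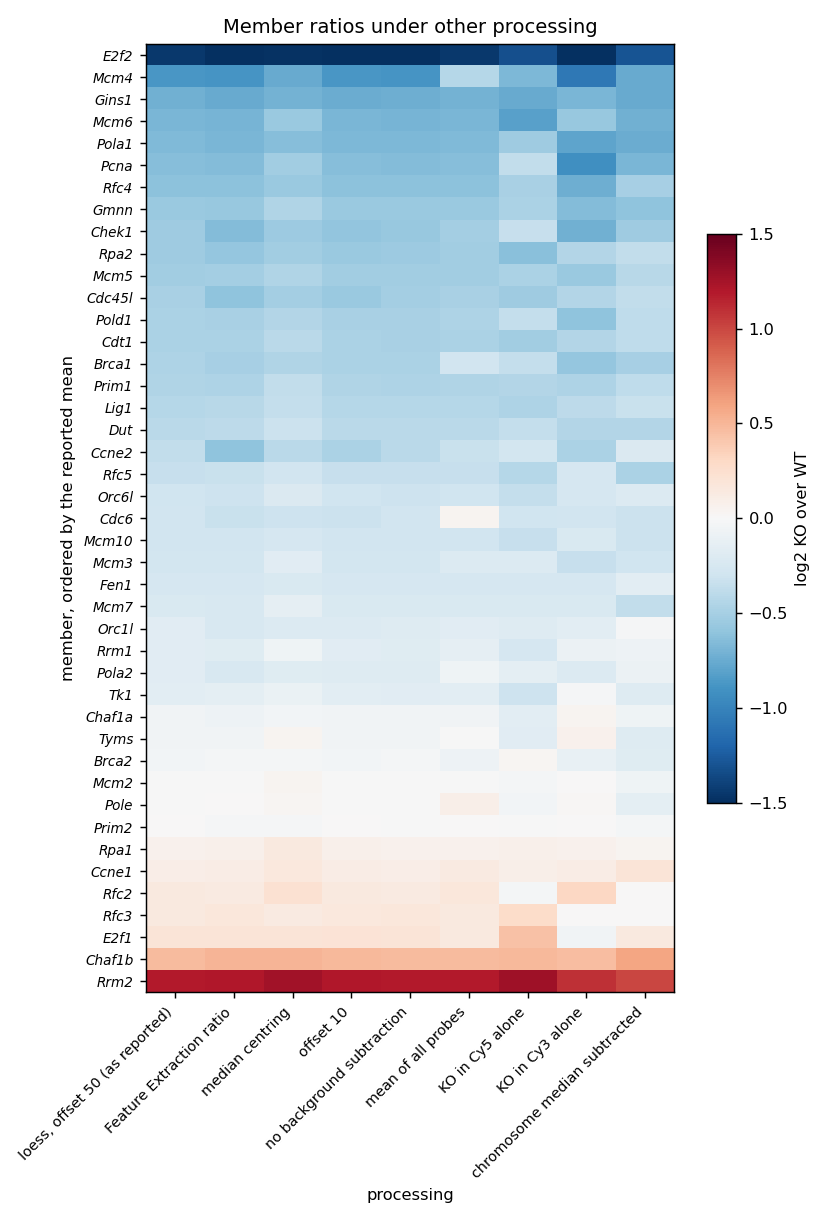
Mean log2 ratio of KO over WT, as colour, of each member (rows, ordered by the value reported) under the processing reported and 8 other ways of computing it (columns). Colours end at 1.5 in either direction. Of 43 members, 34 kept their sign in all alternatives run, 29 lower and 5 higher, and Cdc6 turns sign in the column of the mean of all probes.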

How the data were processed

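Total RNA of KO and WT MEFs was hybridised together on 2 arrays with exchanged dyes. Per the file headers the authors read each spot with Agilent Feature Extraction (10.5.1.1 in the submitters' processing notes) and deposited its mean signal and background as intensity, with a log10 ratio of Cy5 over Cy3. A further deposited table holds log2 ratios and was used as an alternative. Intensities were background corrected (normexp, offset 50) and loess normalised within each array with limma 3.58.1 in R 4.3.3. This offset shrinks ratios from dim probes. Control spots (1639 of 45018 per array) and outlier-flagged spots (390 and 378) were left out. Spots of a probe were averaged, the second array was turned, and the brightest probe stood for a gene. A call needed the fold on each array, one way, and a signal well above background on both arrays in the higher genotype. Of 34 simulated probes at a log2 ratio of -1, 34 were recovered at the 1.5-fold threshold, a lower bar than their true change. The simulation took brighter probes, a set noise and no background correction, so it does not measure recovery at 2-fold. Members and lists were named by role, but they and the bound of 1 SD were chosen with earlier results of these data known. All members are named, and of each further list at most the 5 furthest from WT in each direction past 1.5-fold in the report, while other genes of these lists in the closing section were picked after their values were seen. Atr was not analysed here. Alternatives were another offset, no background subtraction, median centring, all probes, other filters, single arrays, limma's test and the methods' t-test.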

Additional observations from a re-analysis of the deposited data

How the results depend on the processing

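No paired analysis was possible because the 2 arrays exchange dyes and leave 1 replicate of a genotype. The median of the members stayed between -0.32 and -0.25 under all alternatives run. Of 602 member values recomputed, 34 moved by more than the between-array SD and 20 had another sign. The 602 include settings that could not change a member's ratio, so they are not separate checks. Settings chosen after seeing the data were the subtraction of chromosome medians and the bound of 1 SD.

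Median centring in place of loess left 0 members 2-fold lower, 0 higher, 1 at 1.5-fold lower (0 higher), 0 other replication genes lower (0 higher), 1 mitosis gene lower, and 1 G1 and arrest gene lower (0 higher), and by the between-array SD 1 member lower and 1 higher. Under it the members' medians were 0.57 on the first array and -1.04 on the second, beside 0.59 and -0.59 for all tested genes, an offset of opposite sign on each array, so that calls needing both arrays were lost while the members' median of the mean was -0.25. With chromosome medians subtracted, 0 members were 2-fold higher, and the median of the clamp and its loader was -0.48. The mean over all probes gave -0.29 for checkpoint and repair, 0 other replication genes higher, -0.43 for Mcm4 and 0.04 for Cdc6. Single arrays gave 1 to 2 members 2-fold lower, 5 to 9 members 1.5-fold lower, and a nucleotide supply median from -0.26 to -0.018. The share of all tested genes that pass on a single array is not given here, so these counts are no result about the members. E2f2 was -1.85 in Feature Extraction's own ratio.

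Limma on both arrays counted 7 members 1.5-fold lower by adjusted p and mean fold. The share of all tested genes that pass this rule is not given here, so the count is no result about the members. The methods' t-test, run here on the 2 dye-swapped arrays alone, counted 0 members 2-fold lower and 1 at 1.5-fold lower. After Benjamini-Hochberg it counted 0 in every list and direction. The study describes several independent cell lines for its Lats2 KO MEF profile, so these counts do not apply its criterion to those samples. Limma and the t-test both compare the RNAs hybridised, not the genotypes, and the number of arrays limits their precision.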

Other observations

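Subunits that work in 1 complex often had unlike ratios, and those outside the members are named here after their values were seen. In the GINS complex Gins3 and Gins4 had mean log2 ratios of -1.12 and -0.59 beside -0.72 for Gins1. Origin recognition subunits Orc2l, Orc3l, Orc4l and Orc5l lay at 0.14, 0.06, 0.19 and 0.02, above Orc1l and Orc6l. In the lagging-strand polymerase, Pold3 was at -0.60 and Pold2 at -0.27, and Pold4, its smallest subunit, was at 0.23. In the leading-strand polymerase, Pole2 and Pole3 were at -0.36 and -0.77, and Pole4 was at 0.07. Rrm2b, the alternative small subunit of ribonucleotide reductase, was at -0.10 on the scale where Rrm2 was at 1.19.

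The E2F family, likewise named after its values were seen, spanned most of the range of the replication genes. By their brightest probes E2f2, E2f7 and E2f8 were lowest, at -1.45, -0.70 and -0.98, and E2f4 and E2f5 were at -0.05 and -0.17. By the same measure E2f3 and E2f6 were highest, at 0.43 and 0.92. Among genes of G1 and arrest, the growth-arrest genes Gas6 and Gas1 were at 14.7% and 36.0% of WT, and the antiproliferative Btg1 at 40.2%. The Cdk inhibitors Cdkn2d and Cdkn2c were at 48.4% and 49.3%, whereas Cdkn1a, the inhibitor p21, was at 199.9% and cyclin D2 (Ccnd2) at 169.2%. Arrest genes therefore lay on both sides of WT.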
